A study of Mus musculus with 2 samples.

Results

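Mir128-1 and Mir128-2 are the mouse genes that encode the microRNA (miRNA) miR-128. They were chosen by gene symbol from earlier results of these data, and are 2 of 1973 counted miRNA gene identifiers. Their levels below are therefore descriptions without a test. Small RNA under 30 nucleotides was sequenced from whole thymus of mice of the strain B6NCrl on postnatal day 0. There were 2 libraries in 1 group, each from both lobes of a single pup of the same litter: replicate 1 was pup 2 and replicate 2 was pup 3. No treatment or genotype is named, sex was not recorded, and 1 donor identifier is given for both pups. With 1 library per pup, pup and library preparation cannot be told apart, and tests between the libraries compare these 2 libraries by counting error, not conditions.

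A miRNA gene is transcribed as a hairpin, from which mature strands of about the length of these reads are released, named 5p and 3p by the side of the hairpin they come from. One mature strand guides Argonaute proteins to messenger RNAs through its seed, bases 2 to 8, and lowers their stability and translation. miR-128 is best known from neurons, where it is enriched. Mir128-1 lies within R3hdm1, which encodes a protein with an R3H nucleic acid binding domain, and Mir128-2 within Arpp21, which encodes a cyclic AMP regulated phosphoprotein known from striatal neurons and immature thymocytes. The thymus is where T cells mature, and holds thymocytes among epithelial, mesenchymal and endothelial cells.

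The hairpins are shown because the split of reads between the genes depends on where they differ. They are RNA sequences from RefSeq (GRCm38.p6), written 5′ to 3′, and capitals mark the longest stretch that both share, of 23 bases.
Mir128-1 hairpin, chr1:128202361-128202430, plus strand: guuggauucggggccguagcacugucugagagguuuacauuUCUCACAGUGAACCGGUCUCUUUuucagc
Mir128-2 hairpin, chr9:112118636-112118711, minus strand: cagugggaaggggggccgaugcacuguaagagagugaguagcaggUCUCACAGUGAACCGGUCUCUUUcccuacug

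The mature strands follow, with the seed in capitals.
miR-128-3p, from both genes: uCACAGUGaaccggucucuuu
miR-128-1-5p, from Mir128-1: cGGGGCCGuagcacugucuga
miR-128-2-5p, from Mir128-2: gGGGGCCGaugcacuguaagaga

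The 3p strand was identical at both loci over all 21 bases, and from its start onward the hairpins first differed at the base after it. Counted from 1 at the first base of miR-128-3p, that difference was U22C, with the base of Mir128-1 first. A read that starts at the first base of miR-128-3p and has 21 bases or fewer thus matches both loci. A templated read of 22 bases matches a single one. A strand of 21 bases from either gene with an untemplated U added would match Mir128-1 in full, but not Mir128-2. How many such reads were counted is not known here. The bases that follow the 3p strand, in capitals, set the loci apart.
Mir128-1, 3p strand and the 6 bases after it: ucacagugaaccggucucuuuUUCAGC
Mir128-2, 3p strand and the 6 bases after it: ucacagugaaccggucucuuuCCCUAC

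The 5p strands shared their seed but were not identical. Over their first 21 bases, counted from 1 at the 5′ end, they differed at 5 positions, written from Mir128-1 to Mir128-2 as C1G, U9A, A10U, C18A and U19A. The first base alone thus separates 5p reads of the genes. The Mir128-1 hairpin had 70 bases with 50.0% GC and the Mir128-2 hairpin 76 bases with 56.6% GC. Their global alignment had 55 identical positions of 77, or 71.4%. Their predicted minimum free energies were -29.3 kcal/mol for Mir128-1 with 26 base pairs and -37.3 kcal/mol for Mir128-2 with 28. Among 1005 hairpins of the RefSeq table, 4 windows of 20 bases of each Mir128 hairpin recurred elsewhere, and the only other gene that held them was the second Mir128 gene.

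**Figure D1:**
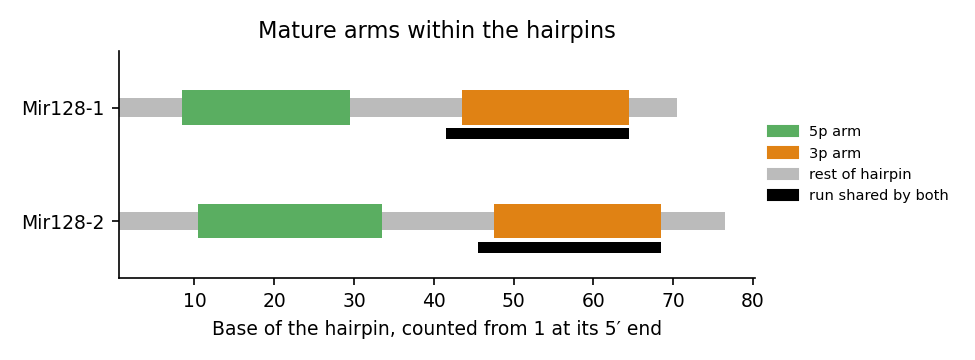
Position of the mature strands within both hairpins, in bases from the 5′ end of each hairpin; green and orange bars are the 5p and 3p strands, grey bars the rest of the hairpin, and black bars the shared stretch of 23 bases. The shared stretch holds the whole 3p strand in both hairpins and none of the 5p strand.

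Both genes lay in introns of their hosts and on the same strand (GENCODE M21, GRCm38). R3hdm1 (ENSMUSG00000056211.13, chromosome 1, 128103301 to 128237736, plus strand) had 2 of 16 annotated transcripts spanning Mir128-1 (ENSMUSG00000065520.1). In its principal transcript R3hdm1-201 the miRNA lay in intron 19 of 26, of 14107 bases, 5263 bases after the upstream exon. Arpp21 (ENSMUSG00000032503.18, chromosome 9, 112065091 to 112235938, minus strand) had 9 of 31 transcripts spanning Mir128-2 (ENSMUSG00000065441.1). In its principal transcripts, Arpp21-229 and Arpp21-223, that miRNA lay in intron 17 of 18 and intron 19 of 20, in both of 51873 bases, 471 bases after the upstream exon. None of the spanning transcripts had an exon over either miRNA. Neither host held another counted miRNA gene. The nearest detected miRNA genes were Mir135b, 3996 kb from Mir128-1, and Mir6236, 1837 kb from Mir128-2, both with at most 71 counts in a library. The RNA of the hosts was not analysed here, since the tables count miRNA genes only.

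The tables covered 10642220 reads for replicate 1 and 4892171 for replicate 2, with 2734133 and 1289151 assigned to miRNA genes on the gene's own strand. Levels are counts per 1000000 of these (CPM), with no scaling by length since a read covers a mature strand, and errors are SD over the 2 libraries (n = 2). A count of 0 allows up to 3 counts, or 1.10 CPM in replicate 1 and 2.33 CPM in replicate 2. Reads that mapped to several places made up 56.3% and 57.5% of the libraries and were tallied apart from the genes. They can include reads of miR-128-3p, so the counts of both genes can be too low by an amount not known here. The tables do not separate 5p from 3p reads. Intervals cover counting error only, since PCR copies were counted as reads, with no molecular identifiers to merge them. The libraries were not copies of each other (chi-square 27452 on 683 degrees of freedom). At least 10 counts in both libraries were required to call a gene detected, which 294 genes passed, both Mir128 genes among them.

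Mir128-1 had 40561 counts in replicate 1 and 13814 in replicate 2, or 14835 CPM (95% Wilson interval 14692 to 14979) and 10716 CPM (10539 to 10895). The mean was 12775 CPM ± 2913, or 1.28% ± 0.291 of the counts on the gene strand. Replicate 1 was the higher library, and the intervals of the libraries did not overlap. Mir128-2 had 13105 and 5134 counts, or 4793 CPM (4712 to 4876) in replicate 1 and 3982 CPM (3875 to 4093) in replicate 2. Its mean was 4388 CPM ± 573, or 0.439% ± 0.0573 of the counts, and replicate 1 was again higher without overlap of the intervals. Overlap was not counted over the other genes. For scale, an exact binomial test called 128 of the 294 detected genes, or 43.5%, different between the libraries by counting error. Both genes had 0 counts on the opposite strand in both libraries, so their stranded and unstranded counts were equal.

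Mir128-1 ranked 21 and Mir128-2 ranked 47 among the 294 detected genes by mean CPM. In replicate 1 alone they ranked 20 and 46, and in replicate 2 alone 24 and 48. The genes beside Mir128-1 in this order, Mir99a, Mir322, Mir130b and Mirlet7b, differed from it by less than the larger of their SDs. For Mir128-2 the same held for Mir200b and Mir182, whereas Mir363 (5002 CPM ± 107) and Mir98 (3719 ± 214) differed from it by more than the larger SD. Of the detected genes, 101 lay in an intron of a protein-coding gene on the same strand, and Mir128-1 was number 8 of these by mean CPM. The median of these intronic genes was 437 CPM.

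**Figure D2:**
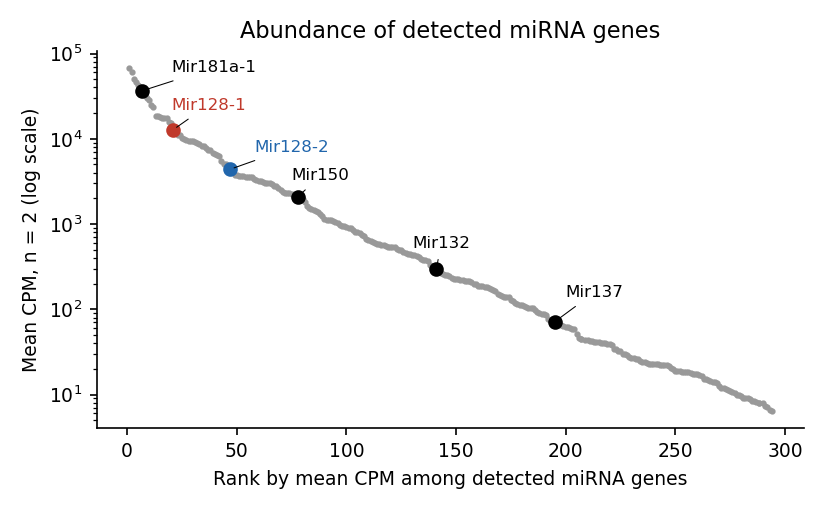
Mean CPM over both libraries (log scale) against rank for the 294 detected miRNA genes, with both Mir128 genes and 4 genes of the lymphocyte and brain lists marked. Mir128-1 lies at rank 21 and Mir128-2 at rank 47, between Mir181a-1 at rank 7 and Mir150 at rank 78.

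The genes together held 53666 counts in replicate 1 and 18948 in replicate 2. Their sum was 19628 CPM and 14698 CPM, a mean of 17163 ± 3486, or 1.72% ± 0.349 of the counts. Mir128-1 supplied 75.6% of the pair in replicate 1 (exact 95% interval 75.2 to 75.9) and 72.9% in replicate 2 (72.3 to 73.5). Mir128-1 thus exceeded Mir128-2 by 3.10 times in replicate 1 (3.03 to 3.16) and by 2.69 times in replicate 2 (2.61 to 2.78), a mean of 2.89 ± 0.286. The order was the same in both pups. The libraries split the pair differently by counting error, with a log2 change in the ratio of -0.20 from replicate 1 to replicate 2 (Wald 95% interval -0.26 to -0.15, two-sided Fisher's exact test p = 3.88e-13). Because reads that match both loci may have been tallied apart, the ratio compares counted reads and does not rank the transcription of R3hdm1 and Arpp21.

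Other miRNA genes annotated at 2 numbered loci are set beside this split, although the reads that can be placed at a single locus differ between pairs. From the first base of the shared mature strand, the Mir181a loci are identical for 27 bases and the Mir128 loci for 21. Of 35 such pairs in the tables (genes with further copies left out), 19 had at least 10 counts in both libraries at 1 locus or more, and 14 at both loci. By summed CPM, the Mir128 pair was number 3 of the 19, after Mir181a, a miRNA that raises T cell receptor sensitivity (36829 ± 734), and Mir16, a restrainer of the cell cycle (20763 ± 1066). Mir92, of the miR-17-92 cluster and its paralog, followed Mir181a, Mir16 and Mir128 with 9899 ± 1069. Mir181b was close to Mir92 with 9584 ± 2525, and above it in replicate 1 (11369 against 9143 CPM). Of the less counted loci of the 35 pairs, Mir128-2 had the highest mean CPM. In the Mir181a pair the larger locus exceeded the smaller by 212 ± 109 times, in the Mir16 pair by 5.53 ± 0.162 times and in the Mir92 pair by 3.59 ± 0.0166 times. Between the libraries, the median absolute log2 change of the ratio was 0.16 over the 13 other pairs detected at both loci, and 4 of them changed by more than the Mir128 pair. These 4 were Mir181a, Mir19b, Mir26a and Mir450, whose smaller loci had at most 352 counts in a library, so counting error weighs more there. The ratios of Mir16 (0.06) and Mir92 (-0.01), with at least 2999 counts at each locus, changed by less than that of Mir128 (-0.20).

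The length of sequence that the loci share differed between these pairs, a comparison chosen after the values were seen. From the first base of the shared mature strand, the loci were identical for 21 bases in Mir128 and Mir92 and for 22 in Mir194, and these 3 pairs had summed levels of 122 to 17163 CPM. The 4 pairs with 23 identical bases (Mir16, Mir138, Mir19b and Mirlet7c) had 68.6 to 20763 CPM. The 5 pairs with at least 24 (Mir181a, Mir181b, Mir26a, Mir30c and Mir450) had 32.5 to 36829 CPM. Over these 12 pairs, detected at both loci and with an identical mature strand in the RefSeq table, the ranges overlapped. Mirlet7a and Mir125b, also detected at both loci, were left out. That table held no identical mature strand for the Mirlet7a loci, and the Mir125b loci were not compared by sequence. The pairs are different miRNAs with levels of their own, so an effect of shared sequence on the counts was not tested.

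**Figure D3:**
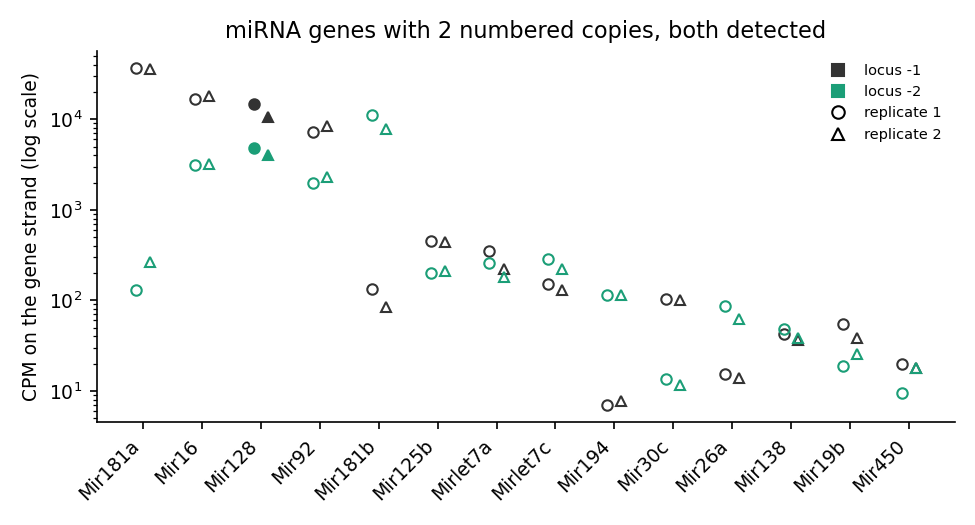
CPM on the gene strand (log scale) at both loci of the 14 miRNA pairs detected at both, ordered by summed CPM; black marks locus -1 and green locus -2, circles replicate 1 and triangles replicate 2, with filled symbols for Mir128. The Mir128 loci lie 2.69 to 3.10 times apart, and the Mir181a loci 135 to 289 times apart.

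Both Mir128 genes were lower in replicate 2. With TMM scaling, the log2 ratio of replicate 2 over replicate 1 was -0.54 for Mir128-1 (exact 95% interval -0.56 to -0.51) and -0.33 for Mir128-2 (-0.38 to -0.29). By the two-sided exact binomial test with Benjamini-Hochberg adjustment, both were called lower. Mir128-2 had an adjusted exact p = 4.09e-45, and the p of Mir128-1 was too small for double precision. This test called 69 of the 294 detected genes lower, or 23.5%, and 128 in either direction, or 43.5%, with 59 higher. Scaled to total counts, 72 of the 294 were higher and 52 lower. Among the 96 genes averaging 1000 CPM or more, where counting error is smaller, 45 were lower and 32 higher with TMM scaling. A negative binomial test in edgeR, which allows for spread between libraries (biological coefficient of variation 0.154), called neither gene, with an unadjusted p of 0.0906 for Mir128-1 and 0.292 for Mir128-2 and an adjusted p of 1.0 for both. Its spread was estimated from the same 2 libraries that it compares, so few calls follow from its construction and a missed call says little. It called 1 gene of 294, or 0.34%, and 15 passed at an unadjusted p under 0.05. Each pup is a single library, so these differences have no replicate check.

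In size, the difference of Mir128-1 stood toward the low end of abundant genes. Over all detected genes the median log2 ratio was -0.03 and the median absolute log2 ratio 0.21, and 15 genes had a lower ratio than Mir128-1 and 36 a lower ratio than Mir128-2. Among the 96 genes averaging 1000 CPM or more, a set chosen after the values were seen, Mir128-1 was number 2 from the lowest ratio, after Mir181b-2 at -0.61, and Mir128-2 was number 8. The median absolute log2 ratio of these 96 genes was 0.15. Summed markers of some other cell types also differed between these libraries. The mesenchymal markers, Mir143, Mir145a, Mir199a-1 and Mir214, took 4.57% of counts in replicate 1 and 6.06% in replicate 2. Of these, Mir143 alone took 4.30% and 5.73%. Mir214 was also called higher in replicate 2, Mir145a was not called and Mir199a-1 was not detected. Mir126a, of endothelial cells, took 2.80% and 3.73%, and the erythroid markers 0.0231% and 0.0168%. The erythroid marker Mir451a had 144 CPM in replicate 1 and 82.2 in replicate 2, whereas Mir144 had 87.0 and 85.3. The lymphocyte markers took 4.61% and 4.47% and the epithelial markers 3.60% and 3.72%. Within both sums, members went both ways with TMM scaling. Of the 4 counted lymphocyte markers, 3 were called lower in replicate 2 and 1, Mir150, higher. Of the 6 epithelial markers, 3 were called higher, 1, Mir200c, lower, and 2 were not called. The part of these cell types in the Mir128 difference was not tested. In bulk tissue, fewer cells of a type and less RNA per cell cannot be told apart.

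**Figure D4:**
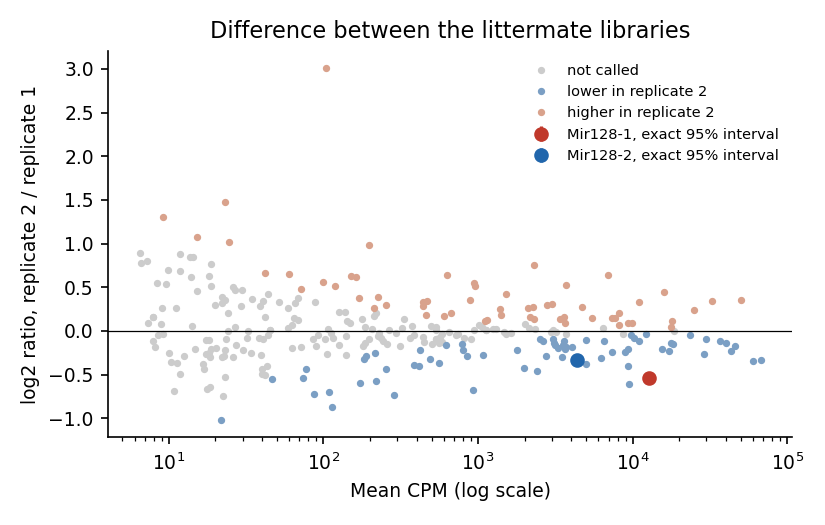
Log2 ratio of replicate 2 over replicate 1 with TMM scaling against mean CPM (log scale) for the 294 detected genes, coloured by the exact binomial call; bars on both Mir128 genes are exact 95% intervals, narrower than the symbols. Mir128-1 at -0.54 and Mir128-2 at -0.33 lie below 0, on the lower edge of genes of like abundance for Mir128-1.

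No gene besides Mir128-1 and Mir128-2 had either Mir128 seed in the RefSeq table. Of 1738 mature strands, 2 had the seed CACAGUG, both miR-128-3p, and 2 had GGGGCCG, both miR-128-5p. The first 7 bases of miR-128-3p, UCACAGU, formed the seed of miR-27, a related seed shifted by 1 base, so they are shown beside it with the seed in capitals.
miR-27a-3p: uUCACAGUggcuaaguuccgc
miR-27b-3p: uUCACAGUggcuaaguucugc
The genes of miR-27, a miRNA of the miR-23/27/24 clusters that acts in T cells and vessels, were less counted. Mir27a (chromosome 8) had 1208 CPM in replicate 1 and 1285 in replicate 2, and Mir27b (chromosome 13) 3475 and 3877. Mir128-1 exceeded Mir27b by 3.52 ± 1.06 times and Mir128-2 exceeded it by 1.20 ± 0.249 times, so Mir128-2 and Mir27b were close. Neither miR-27 gene was lower in replicate 2 by the binomial test. Mir27a had a log2 ratio of 0.02 (exact 95% interval -0.06 to 0.11, adjusted exact p = 0.72) and Mir27b one of 0.09 (0.04 to 0.14, adjusted exact p = 0.000886).

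The genes with the levels most like Mir128-1 in both libraries were Mir130b, Mirlet7b and Mir322, by Euclidean distance in log2(CPM + 1) over the 2 libraries (0.36, 0.40 and 0.47). Those most like Mir128-2 were Mir182, Mir181d and Mir363 (0.19, 0.27 and 0.32). With 2 libraries this measure mostly reflects abundance. Mir181d, of the miR-181 family of thymocytes, had a log2 ratio of -0.38, near that of Mir128-2. Mir130b had one of -0.04, so the gene nearest to Mir128-1 in level was not near it in ratio.

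**Figure D5:**
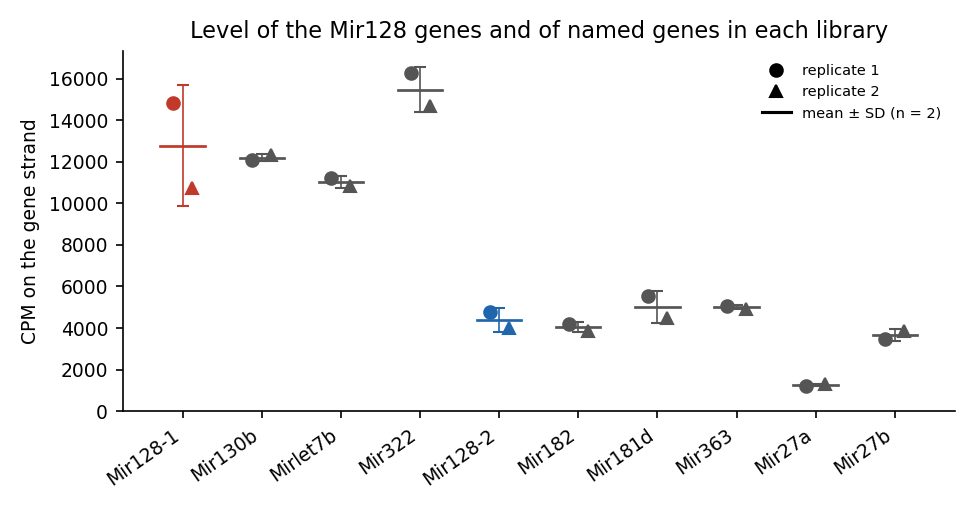
CPM on the gene strand in replicate 1 (circles) and replicate 2 (triangles) for both Mir128 genes, the 3 genes most like each and the miR-27 genes; lines are means and bars SD over 2 libraries. Mir128-1 has 14835 CPM in replicate 1 and 10716 in replicate 2, a wider gap than in the other genes shown.

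By counted reads, the Mir128 genes were abundant in this tissue beside other miRNAs of the brain. The brain list held 18 genes, of which 17 were counted and 7 detected. All of its counted members together took 0.0571% ± 0.00184 of counts, against 1.72% for the Mir128 pair. Its most abundant members were Mir132, a miRNA induced by neuronal activity, with 295 CPM ± 5.31, Mir137, a miRNA of neural differentiation, with 71.4 ± 18.7, and Mir138-2 with 43.0 ± 7.00. Neither pup had a count for Mir9-2 or for the defining neuronal genes Mir124a-3, Mir124a-2 and Mir124a-1. As copies of other loci, these genes can lose reads to the multimapping tally. Several counted members of the list, such as Mir138-2, are numbered copies too and can lose reads in the same way. The summed share of the list can therefore be too low by an amount not known here, as can that of the Mir128 pair. The contrast between these shares holds for counted reads only. Mir128-1 exceeded Mir137 by 255 times in replicate 1 and by 127 times in replicate 2. Of the 7 detected brain genes, 1 was called higher in replicate 2 (Mir137, log2 ratio 0.47), none lower and 6 did not pass, against 20.1% higher and 23.5% lower over all detected genes. Their median log2 ratio was -0.08. At the low counts of these 7 genes, only larger differences can pass this test.

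Against miRNAs of thymocytes and lymphocytes, the Mir128 genes lay within the range of the list. Of its 15 genes, 14 were counted and all of these were detected, with 18.0% ± 0.718 of counts. It was led by Mir17 (45956 CPM ± 2486), of the miR-17-92 cluster that supports lymphocyte proliferation, Mir181a-1 (36631 ± 832) and Mir20a (28814 ± 2851). Mir128-1 reached 0.348 ± 0.0716 of the level of Mir181a-1 and Mir128-2 reached 0.120 ± 0.0129 of it. Both exceeded Mir150, a miRNA of mature lymphocytes, Mir128-1 by 6.30 ± 2.41 times and Mir128-2 by 2.15 ± 0.622 times. By the exact binomial test, 9 of the 14 genes were called lower in replicate 2, 4 higher and 1 did not pass, with TMM scaling and with total counts alike. Some of these genes lie side by side on a chromosome, such as Mir17 with Mir20a, Mir15a with Mir16-1 and Mir181c with Mir181d. The 14 are therefore not independent of each other. Over all detected genes 23.5% were called lower and 20.1% higher with TMM scaling. Among the 96 genes averaging 1000 CPM or more, which include most of this list, 45 were called lower and 32 higher. The median log2 ratio of the list was -0.17. Mir146, the gene of the activation-induced miR-146a, had 1114 CPM in replicate 1 and 731 in replicate 2, and its log2 ratio of -0.67 was below that of both Mir128 genes. Mir142 of this list had no row of its own in the tables, and its locus overlaps that of Mir142b on the opposite strand.

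The markers of the tissue were present. The lymphocyte markers took 4.54% ± 0.103 of counts, with 4 of 5 counted and detected, and the 6 epithelial markers 3.66% ± 0.0863. Neural markers took 0.00719% ± 0.00190, with 4 of the 6 counted at 0. These 4 are numbered copies that can lose reads to the multimapping tally, so the neural share can be too low. The erythroid markers took 0.0199% ± 0.00450, and those of striated muscle 0.0547% ± 0.0113. Of the muscle markers, Mir206 had 444 CPM ± 2.09, and the cardiac gene Mir208b had 21.9 CPM in replicate 1 and 185 in replicate 2. Mir1a-1 and Mir133a-1 were at 0, but belong to genes with numbered copies and can lose reads to the multimapping tally.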

How the data were processed

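The authors deposited a table of unnormalized read counts over miRNA genes for each library, without pooling. Per the deposited text that accompanies them, the authors used mm10 and GENCODE M4. The name of the aligner was not given in the sources used here, nor that of the counter. From the values, the first count column equals the sum of the second, on the gene strand, and the third, on the opposite strand. The second was used. Totals of unmapped, multimapping, ambiguous and unannotated reads were left out of library sizes.

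Of 1973 identifiers, 1894 matched GENCODE M21, a later release, for symbols, positions and hosts. A list name without a row was looked up among RefSeq synonyms, which placed Mir146a under Mir146. Sequences are from RefSeq (GRCm38.p6), whose table held 269 of the 294 detected genes with a mature strand. Library sizes were scaled by TMM (edgeR 4.0.16, R 4.3.3). Each gene was compared between libraries by an exact binomial test, two-sided, against the scaled library sizes, with Benjamini-Hochberg adjustment over all detected genes at 0.05 (scipy 1.17.1). This test was tried on simulated counts with counting error only, so its calls under spread between libraries were not checked. With 1 group there was no group term. Alignment used Biopython 1.88 and folding RNAfold 2.7.2. Alternatives were both strands, other denominators, DESeq2 1.42.0 size factors, other count minimums and an edgeR negative binomial test.

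The members and lists were chosen with earlier results of these data known. The genes named are the members, the 3 genes nearest each in level, genes with a related seed, pairs of numbered copies, and the 3 most abundant genes of each list. Further genes were named after their values were seen.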

Additional observations from a re-analysis of the deposited data

How the results depend on the processing

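The order and direction of the Mir128 results held under every alternative run. With both strands counted, Mir128-2 had a mean of 3752 CPM. With all reads of the library in the denominator, the means were 3318 CPM for Mir128-1 and 1140.4 CPM for Mir128-2, since that total includes multimapping reads. Leaving out either library gave 10716 to 14835 CPM for Mir128-1, 3982 to 4793 CPM for Mir128-2, and 2.69 to 3.10 for their ratio. Over the alternatives, the log2 ratio between libraries ran from -0.55 to -0.47 for Mir128-1 and from -0.35 to -0.27 for Mir128-2. By the negative binomial test, whose spread comes from the libraries it compares, with the same log2 ratios of -0.54 and -0.33, neither passed, and 1 gene was called in all instead of 128. No paired analysis was possible because there is 1 group. Depth sets the width of the intervals given beside each level. The share of miR-128 reads among the multimapping reads is not known, and each pup is a single library, so neither limit is covered by the intervals.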
